A study of Mus musculus with 2 samples.

Results

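Macrophages of mouse liver tumours that carried little Cxcl9 and Cxcl10 RNA and few Kupffer cell transcripts were compared between Crtc2-/- and Crtc2+/+ mice. A barcode was a member if it held at least 20 UMIs (unique molecular identifiers, counted RNA molecules) of C1qa, C1qb and C1qc together and at most 4 of Cxcl9 and Cxcl10. It also had to hold at most 2 UMIs of Clec4f, Vsig4 and Cd5l, at most 1 of Sox5 and at most 1 of Mki67 and Top2a, with none of Ly6c2, Cd3d, Cd3e, Cd3g or Cd79a. Members numbered 295 of 9174 kept barcodes in the Crtc2-/- library and 3324 of 9612 in the Crtc2+/+ library, or 3619 of 18786 in all; kept barcodes had 500 or more UMIs, 250 or more genes and up to 20% mitochondrial UMIs. These values chose the cells, so the levels of the rule's genes and the sizes of the groups are given as a description.

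Both libraries came from tumours of livers of mice given diethylnitrosamine (DEN), a liver carcinogen, intraperitoneally at 25 mg/kg at 2 weeks of age and then a NASH (non-alcoholic steatohepatitis) diet from week 8 to week 26. They differed in genotype, Crtc2-/- or Crtc2+/+, and there was 1 library of each, made with 10x Genomics 3' chemistry. The sources used here do not give how many animals or tumours each library pooled, which part of Crtc2 was removed or in which cells. Since each genotype is a single library, differences have no replicate check and are given without a test, and genotype cannot be told apart from animal, tumour or preparation. Intervals in parentheses are 95% and cover counting error only.

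Liver macrophages come from several sources. Kupffer cells are the resident macrophages of the sinusoids, and they carry Clec4f, Vsig4, Timd4 and Cd5l. In steatohepatitis and in tumours, monocytes from the blood enter and become further macrophages, of which those with Trem2, Cd9 and Gpnmb are known as lipid-associated macrophages. Cxcl9 and Cxcl10 are chemokines that macrophages make under interferon, and they attract T cells through CXCR3. The protein made from Crtc2 is a coactivator of CREB, a transcription factor that answers cAMP.

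Members made up 3.22% (2.86 to 3.597) of kept Crtc2-/- barcodes and 34.6% (33.6 to 35.5) of kept Crtc2+/+ barcodes. Among barcodes with at least 20 C1q UMIs, 16.8% (15.1 to 18.6) of 1758 in the Crtc2-/- library and 64.6% (63.2 to 65.9) of 5149 in the Crtc2+/+ library were members. The criteria that removed the C1q-rich barcodes differed between the libraries. Sox5 removed 40.8% of them in the Crtc2-/- library and 1.88% in the Crtc2+/+ library, and the 3 Kupffer genes removed 32.3% in the Crtc2-/- library and 0.796% in the Crtc2+/+ library. Cxcl9 and Cxcl10 removed 9.22% in the Crtc2-/- library and 17.1% in the Crtc2+/+ library. The Cxcl9/Cxcl10-high macrophages, which met every other criterion but held at least 5 UMIs of those chemokines, numbered 53 in the Crtc2-/- library and 616 in the Crtc2+/+ library. A Kupffer gate, with at least 10 UMIs of Clec4f, Vsig4 and Cd5l, held 240 Crtc2-/- and 22 Crtc2+/+ barcodes.

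**Figure D1:**
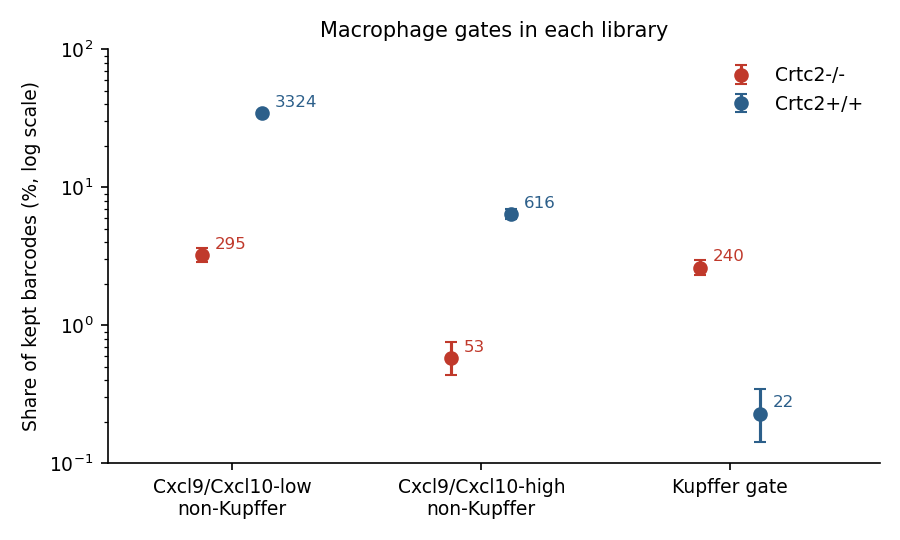
Share of kept barcodes (percent, log scale) in 3 macrophage gates of the Crtc2-/- library (red, left of each pair) and the Crtc2+/+ library (blue), with exact 95% binomial intervals and the number of cells beside each point. The Cxcl9/Cxcl10-low members stood at 3.22% in the Crtc2-/- and 34.6% in the Crtc2+/+ library, while the Kupffer gate held 240 Crtc2-/- and 22 Crtc2+/+ cells.

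Most members lay well inside the rule. No Cxcl9 or Cxcl10 UMI was counted in 248 of 295 Crtc2-/- members and 2601 of 3324 Crtc2+/+ members. At the edge, 4 Crtc2-/- and 64 Crtc2+/+ members held 4 of these UMIs, and 3 Crtc2-/- and 37 Crtc2+/+ barcodes just outside held 5. For the 3 Kupffer genes, 239 Crtc2-/- and 3263 Crtc2+/+ members held none, 12 Crtc2-/- and 8 Crtc2+/+ members held 2, and 7 Crtc2-/- and 1 Crtc2+/+ barcodes just outside held 3. A single Sox5 UMI was present in 22 Crtc2-/- and 33 Crtc2+/+ members, and 18 Crtc2-/- and 19 Crtc2+/+ barcodes just outside held 2.

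Members held somewhat more UMIs per cell in the Crtc2-/- library, although all kept barcodes had a median of 6748.5 UMIs there and 7260.5 in the Crtc2+/+ library. The median was 10214 UMIs and 3254 genes in Crtc2-/- members and 8061.5 UMIs and 2857.5 genes in Crtc2+/+ members, and mitochondrial shares were 2.21% in Crtc2-/- and 1.63% in Crtc2+/+ members. C1q UMIs had a median of 131 in Crtc2-/- and 127 in Crtc2+/+ members. Summed over members there were 3107545 UMIs from Crtc2-/- and 29376116 from Crtc2+/+ cells, so small counts limit the Crtc2-/- side. The libraries shared 29 barcode sequences, 1 of them among members. Xist was not counted in members of either library and Y-linked genes were counted in both. Levels are CPM, the gene's UMIs scaled to the same total over members, and a log2 ratio divides the Crtc2-/- by the Crtc2+/+ level with 10 CPM added to each level, which understates ratios of low genes.

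Crtc2 itself (chr3:90254163-90264125 on GRCm38, plus strand) stood at 4.18 CPM (2.23 to 7.15; 13 UMIs) in Crtc2-/- members and 6.4 CPM (5.52 to 7.38; 188 UMIs) in Crtc2+/+ members. The ratio was 0.654 (0.342 to 1.15), and over all kept barcodes it was 0.700 (0.618 to 0.791). Crtc2 RNA was thus still counted in the library labelled Crtc2-/-, and 3' tags outside a removed part do not check that label. Crtc3, the paralogue with the higher level here, was at 82.1 CPM in Crtc2-/- and 80.1 CPM in Crtc2+/+ members.

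The label was checked against macrophage markers that the rule did not use. Ms4a7, a membrane protein of monocyte-derived macrophages, stood at 834 CPM (803 to 867) in Crtc2-/- members and 1103 CPM (1091 to 1115) in Crtc2+/+ members, with a UMI in 91.5% of Crtc2-/- and 96.6% of Crtc2+/+ members. Adgre1, which encodes F4/80, stood at 609 CPM in Crtc2-/- and 531 CPM in Crtc2+/+ members. With every cell thinned to 2000 UMIs, Ms4a7 was seen in 70.4% of Crtc2-/- and 80.6% of Crtc2+/+ members, against 0.281% of Crtc2-/- and 2.54% of Crtc2+/+ B cells. Adgre1 was seen in 60.2% of Crtc2-/- and 63.2% of Crtc2+/+ members, against 2.53% of Crtc2-/- and 2.54% of Crtc2+/+ B cells. The third marker, Trem2, was less common in Crtc2-/- members, seen in 14.6% of Crtc2-/- and 35.5% of Crtc2+/+ members, against 0.187% of Crtc2-/- and 1.06% of Crtc2+/+ B cells. Of 11 macrophage core genes outside the rule, among them Csf1r, Lyz2 and Cd68, none was past 2-fold, and their median log2 ratio was -0.07 beside 0.01 over all genes. The largest difference of the list was Mertk, a receptor for dying cells, at 560.2 CPM in Crtc2-/- and 289 CPM in Crtc2+/+ members (log2 ratio 0.93). Members of both libraries therefore carried Ms4a7, Adgre1 and the core genes, with Trem2 lower in Crtc2-/- members, and the Kupffer genes below do not let the Crtc2-/- members be called free of Kupffer-type RNA. Because Sox5 and the Kupffer genes removed such different shares of the C1q-rich barcodes, the members may be different mixtures of macrophages in the 2 libraries, and a difference in mixture and a difference within a cell type cannot be told apart in the ratios between genotypes.

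Between the genotypes, 3772 genes had at least 50 CPM in members of a library. Of these, 132 (3.5%) were more than 2-fold higher in Crtc2-/- members and 123 (3.26%) more than 2-fold lower. Many had low counts on the lower side: 79 of the higher genes were under 50 CPM in Crtc2+/+ members and 75 of the lower genes under 50 CPM in Crtc2-/- members, while 53 of the higher and 48 of the lower genes passed that level in both.

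The genes lowest in Crtc2-/- members included products for secretion, adhesion and signalling. Pmepa1 (chr2:173224458-173276533, minus strand), a membrane protein induced by TGF-beta that restrains SMAD signalling, stood at 21.6 CPM (16.7 to 27.4; 67 UMIs) in Crtc2-/- and 815 CPM (804 to 825; 23931 UMIs) in Crtc2+/+ members, a log2 ratio of -4.71. A Pmepa1 UMI was present in 8.47% of Crtc2-/- and 88.3% of Crtc2+/+ members. After thinning to 2000 UMIs the shares were 3.74% of Crtc2-/- and 68.9% of Crtc2+/+ members. Among T cells, which should lack the gene or carry little, they were 6.66% in the Crtc2-/- and 16.8% in the Crtc2+/+ library. The thinned share of Crtc2-/- members was thus not above that of T cells. T cells were shallower, with a median of 4605.5 UMIs against 10214 in Crtc2-/- members. Thinning can therefore lower free RNA more in members, and the comparison cannot decide whether the remaining Pmepa1 UMIs were background. Dach1, a transcriptional cofactor, followed at 1.93 CPM (0.709 to 4.20) in Crtc2-/- and 181 CPM (176 to 186) in Crtc2+/+ members, and all 6 of its Crtc2-/- UMIs came from a single cell, 0.339% of members. Stard13, a GTPase-activating protein, was at 1.61 CPM (0.522 to 3.75) in Crtc2-/- and 150.5 CPM (146 to 155) in Crtc2+/+ members. The Crtc2-/- levels of Dach1 and Stard13 rest on 6 and 5 UMIs.

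Lower by a similar order were Lhfpl2, a 4-pass membrane protein, at 8.69 CPM in Crtc2-/- and 189.9 CPM in Crtc2+/+ members, and Col14a1, a fibril-associated collagen, at 2.57 CPM in Crtc2-/- and 95.04 CPM in Crtc2+/+ members. Capn3, a calcium-dependent protease, stood at 3.86 CPM in Crtc2-/- and 91.2 CPM in Crtc2+/+ members. Lrrc4c, known as a synaptic adhesion protein, stood at 1.29 CPM in Crtc2-/- and 71.7 CPM in Crtc2+/+ members. Ifnlr1, the receptor chain for interferon lambda, was at 4.18 CPM in Crtc2-/- and 71.0 CPM in Crtc2+/+ members. Qpct, a glutaminyl cyclase, was at 5.79 CPM in Crtc2-/- and 71.1 CPM in Crtc2+/+ members, and Cacnb2, a calcium channel subunit, at 9.98 CPM in Crtc2-/- and 79.8 CPM in Crtc2+/+ members. Olfml3 (chr3:103722222-103738001, minus strand), a secreted glycoprotein, kept a clearer level of 35.7 CPM (29.4 to 43.0) in Crtc2-/- members, against 240.5 CPM (235 to 246) in Crtc2+/+ members.

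Tnfsf13b (chr8:10006467-10039072, plus strand) encodes BAFF, the survival factor of B cells. It stood at 21.6 CPM (16.7 to 27.4) in Crtc2-/- and 205 CPM (200.3 to 211) in Crtc2+/+ members, 9.53-fold lower in Crtc2-/- (log2 ratio -2.77). A UMI was seen in 16.3% of Crtc2-/- and 72.4% of Crtc2+/+ members. The related factor APRIL, Tnfsf13, lay the other way without passing 2-fold, at 103 CPM in Crtc2-/- and 66.3 CPM in Crtc2+/+ members. Trem2 (chr17:48346401-48354147, plus strand), the lipid receptor used as a marker here, stood at 97.2 CPM (86.5 to 109) in Crtc2-/- and 289 CPM (283 to 296) in Crtc2+/+ members, with a UMI in 30.5% of Crtc2-/- and 66.3% of Crtc2+/+ cells and a log2 ratio of -1.48. Promoters of both are shown because each is lower in Crtc2-/- members and each holds TGANTCA, a loose form of the AP-1 site with N any base, in capitals. The letters were TGAATCA in Trem2 and TGAGTCA in Tnfsf13b. Tnfsf13b also holds the letters of an interferon-stimulated response element, GAAA followed after any 2 bases by GAAA. Sequences are from RefSeq (GRCm38.p6), plus strand, chr17:48346151-48346450 for Trem2 and chr8:10006383-10006682 for the second listed start of Tnfsf13b, each from 250 bases before to 50 after the start.
Trem2: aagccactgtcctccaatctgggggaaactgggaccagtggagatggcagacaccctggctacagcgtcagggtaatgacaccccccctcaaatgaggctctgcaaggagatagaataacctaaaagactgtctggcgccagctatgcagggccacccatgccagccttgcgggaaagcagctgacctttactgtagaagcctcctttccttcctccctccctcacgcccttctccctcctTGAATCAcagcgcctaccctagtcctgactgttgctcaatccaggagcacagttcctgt
Tnfsf13b: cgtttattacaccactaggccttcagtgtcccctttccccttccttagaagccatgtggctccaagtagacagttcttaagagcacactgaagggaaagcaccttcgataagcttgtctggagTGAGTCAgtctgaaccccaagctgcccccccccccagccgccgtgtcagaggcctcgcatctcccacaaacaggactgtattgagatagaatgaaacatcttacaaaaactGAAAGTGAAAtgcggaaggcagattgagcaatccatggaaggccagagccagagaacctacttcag
The AP-1 letters began at position -9 from the start in Trem2 and -127 in Tnfsf13b, and the response element at -16 in Tnfsf13b, with no overlap.

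**Figure D2:**
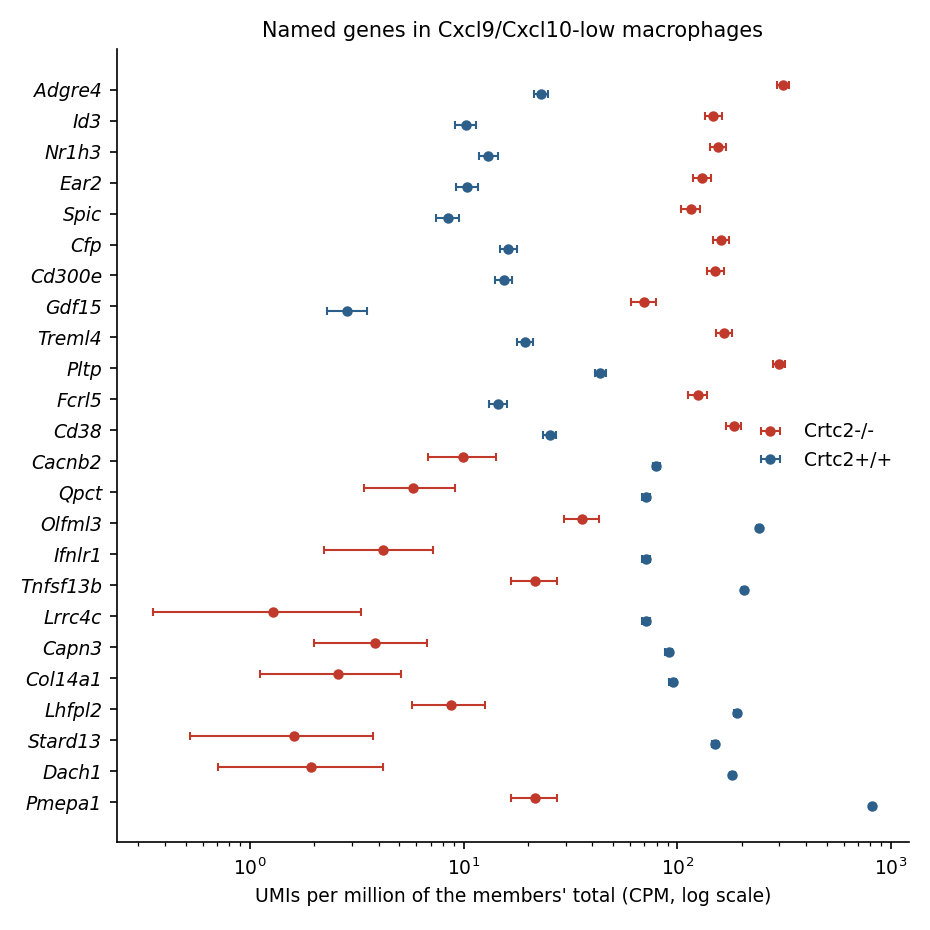
Levels of the 12 genes highest and the 12 lowest in Crtc2-/- against Crtc2+/+ members (CPM, log scale), Crtc2-/- in red and drawn above Crtc2+/+ in blue, with exact 95% Poisson intervals. Adgre4 stood at 312 CPM in Crtc2-/- and 22.9 CPM in Crtc2+/+ members, and Pmepa1 at 21.6 CPM in Crtc2-/- and 815 CPM in Crtc2+/+ members.

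Genes highest in Crtc2-/- members held several that are known from Kupffer cells, from red pulp macrophages of the spleen or from nonclassical monocytes. Adgre4 (chr17:55749984-55853662, plus strand), an adhesion receptor related to F4/80, stood at 312 CPM (293 to 333) in Crtc2-/- and 22.9 CPM (21.2 to 24.7) in Crtc2+/+ members, 13.6-fold higher, with a UMI in 69.8% of Crtc2-/- and 7.79% of Crtc2+/+ cells. Nr1h3, which encodes the oxysterol receptor LXR-alpha, was at 155 CPM (142 to 170) in Crtc2-/- and 13.04 CPM (11.8 to 14.4) in Crtc2+/+ members. Id3, an inhibitor of DNA binding known to be needed by Kupffer cells, was at 148 CPM in Crtc2-/- and 10.3 CPM in Crtc2+/+ members. Spic, a transcription factor of haem-loaded macrophages, stood at 116 CPM in Crtc2-/- and 8.44 CPM in Crtc2+/+ members. Pltp, the phospholipid transfer protein, was at 300.2 CPM in Crtc2-/- and 43.7 CPM in Crtc2+/+ members. Cfp, which encodes properdin of the alternative complement pathway, was at 159.9 CPM in Crtc2-/- and 16.2 CPM in Crtc2+/+ members.

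Treml4 (chr17:48264295-48275360, plus strand), a receptor of nonclassical monocytes and some macrophages, was at 165 CPM (151 to 180) in Crtc2-/- and 19.4 CPM (17.8 to 21.03) in Crtc2+/+ members, with a UMI in 66.4% of Crtc2-/- and 11.8% of Crtc2+/+ cells. Cd300e, an activating receptor of monocytes, was at 151 CPM in Crtc2-/- and 15.4 CPM in Crtc2+/+ members, and Ear2, a ribonuclease, at 131 CPM in Crtc2-/- and 10.4 CPM in Crtc2+/+ members. Fcrl5, an Fc receptor-like protein, was at 125 CPM in Crtc2-/- and 14.4 CPM in Crtc2+/+ members. Cd38, an enzyme that degrades NAD, was at 183 CPM in Crtc2-/- and 25.3 CPM in Crtc2+/+ members. Gdf15, a stress cytokine of the TGF-beta family, was the least abundant of the 12, at 69.8 CPM (60.9 to 79.8) in Crtc2-/- and 2.86 CPM (2.28 to 3.54) in Crtc2+/+ members, and was found in 11.9% of Crtc2-/- and 1.02% of Crtc2+/+ cells. Fcrl5 and Olfml3 lie on chromosome 3, as does Crtc2.

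Kupffer cell identity genes were higher in Crtc2-/- members although the rule had removed barcodes with 3 or more UMIs of Clec4f, Vsig4 and Cd5l. Of 12 listed genes outside the rule, 5 reached 50 CPM in a library, all of them in Crtc2-/- members. All 5 were more than 2-fold higher there, beside 3.5% of all tested genes. They were Slc40a1, Id3, Nr1h3, Spic and Il18bp, with a median log2 ratio of 2.84. Without the level filter the median over all 12 was 0.59. Slc40a1, the iron exporter ferroportin, stood at 249 CPM (232 to 267) in Crtc2-/- and 16.9 CPM (15.5 to 18.5) in Crtc2+/+ members, against 1609 CPM in Crtc2-/- and 1282 CPM in Crtc2+/+ cells of the Kupffer gate. The summed level of the 12 genes was 758 CPM (728 to 789) in Crtc2-/- and 74.7 CPM (71.6 to 77.9) in Crtc2+/+ members. Among the listed genes under the level filter, Timd4 and Marco were at or near 0. Timd4 had 3 UMIs in Crtc2-/- and 1 in Crtc2+/+ members, and Marco had 1 in Crtc2-/- and none in Crtc2+/+ members. Fcna, another of them, had at least 29 UMIs in Crtc2-/- and at least 11 in Crtc2+/+ members. The share of members with 1 or 2 UMIs of the rule's own 3 Kupffer genes was 19.0% (14.7 to 23.9) in the Crtc2-/- and 1.84% (1.41 to 2.35) in the Crtc2+/+ library.

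Leaving out every member with a UMI of Clec4f, Vsig4, Cd5l, Timd4, Marco, Fcna or Slc40a1, an alternative chosen after seeing the data, brought the share of kept barcodes to 1.75% in the Crtc2-/- and 32.3% in the Crtc2+/+ library. All 24 genes named above as lowest or highest kept their direction and stayed past 2-fold among those cells. The part that Kupffer RNA, from neighbouring cells or from the cell itself, had in the other levels was not tested further.

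Several genes of monocytes were also higher in Crtc2-/- members. Of 13 listed genes outside the rule, 6 reached 50 CPM, with a median log2 ratio of 1.17. Of the 6, 4 were more than 2-fold higher in Crtc2-/- members and none more than 2-fold lower. The shares over all tested genes were 3.5% higher and 3.26% lower. Treml4, Nr4a1 and Itgal passed 50 CPM only through Crtc2-/- members, and without the level filter the median over all 13 was 0.72. Plac8 stood at 268 CPM (249.8 to 287) in Crtc2-/- and 52.5 CPM (49.9 to 55.2) in Crtc2+/+ members. Itgal, the integrin chain of LFA-1, stood at 103 CPM in Crtc2-/- and 42.5 CPM in Crtc2+/+ members, and Nr4a1, a nuclear receptor that nonclassical monocytes need, at 98.2 CPM in Crtc2-/- and 36.1 CPM in Crtc2+/+ members. Ccr2, the receptor that brings classical monocytes into tissue, was close in both, at 350.1 CPM in Crtc2-/- and 295 CPM in Crtc2+/+ members. Cx3cr1, a receptor of monocytes and their progeny, was at 344 CPM in Crtc2-/- and 539 CPM in Crtc2+/+ members (log2 ratio -0.63). A UMI of Treml4, Ace, Cd300e or Fcrl5 was present in 81.7% (76.8 to 85.9) of Crtc2-/- and 20.9% (19.5 to 22.3) of Crtc2+/+ members. Leaving out members with a UMI of these 4 genes or of Sox5, also chosen after seeing the data, left 54 cells, 0.589% of kept barcodes, in the Crtc2-/- library and 2615 cells, 27.2%, in the Crtc2+/+ library.

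Lipid-associated macrophage genes did not move together. Of 20 listed genes, 18 reached 50 CPM, with a median log2 ratio of 0.16. Of the 18, 3 were more than 2-fold higher and 2 more than 2-fold lower in Crtc2-/- members, beside 3.5% and 3.26% of all tested genes. Lower were Trem2, given above, and the tetraspanin Cd9, at 159 CPM (146 to 174) in Crtc2-/- and 329.6 CPM (323 to 336) in Crtc2+/+ members. Higher were the fatty acid binding proteins Fabp5, at 216 CPM (199.6 to 233) in Crtc2-/- and 28.2 CPM (26.3 to 30.2) in Crtc2+/+ members, and Fabp4, at 112 CPM in Crtc2-/- and 38.9 CPM in Crtc2+/+ members. Lpl, lipoprotein lipase, stood at 368 CPM in Crtc2-/- and 171 CPM in Crtc2+/+ members. Among the 54 Crtc2-/- cells without the nonclassical monocyte genes, the log2 ratios of Fabp4 and Lpl were -0.97 and -0.42. Gpnmb was under the level filter, at 37.0 CPM in Crtc2-/- and 8.00 CPM in Crtc2+/+ members, and Spp1, osteopontin, was at 66.3 CPM in Crtc2-/- and 119 CPM in Crtc2+/+ members. Apoe, a lipid carrier, stood at 14585 CPM in Crtc2-/- and 24771 CPM in Crtc2+/+ members.

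TGF-beta genes other than Pmepa1 differed less. Of 20 listed ligands, receptors and response genes, 13 reached 50 CPM, with a median log2 ratio of -0.34. Of the 13, 2 were more than 2-fold lower and 1 more than 2-fold higher in Crtc2-/- members, beside 3.26% and 3.5% of all tested genes. Ski, a repressor of SMADs, was at 78.8 CPM (69.3 to 89.4) in Crtc2-/- and 179 CPM (174 to 184) in Crtc2+/+ members. Tgfbr1, the type I receptor, was at 860.2 CPM in Crtc2-/- and 1541 CPM in Crtc2+/+ members (log2 ratio -0.83), and Itgb5, an integrin chain that can activate latent TGF-beta, at 451 CPM in Crtc2-/- and 879 CPM in Crtc2+/+ members (log2 ratio -0.95), neither past 2-fold. The ligand Tgfb1 lay higher, at 345 CPM in Crtc2-/- and 218 CPM in Crtc2+/+ members. Id2, an inhibitor of DNA binding, was at 239 CPM in Crtc2-/- and 58.2 CPM in Crtc2+/+ members.

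**Figure D3:**
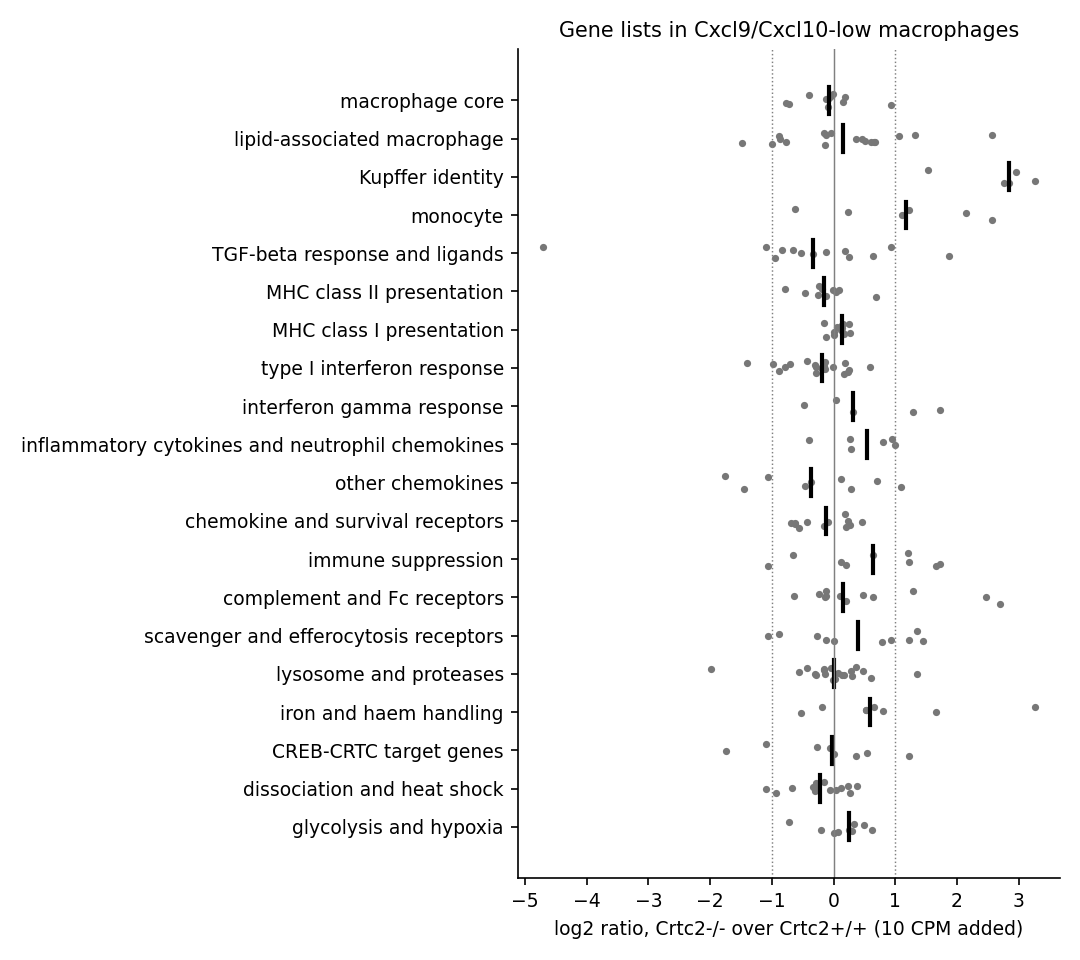
Log2 ratios, Crtc2-/- over Crtc2+/+ members with 10 CPM added, of genes with at least 50 CPM in a library, by list. Points are genes, black bars are list medians and dotted lines mark 2-fold, and the macrophage core stood at -0.07. The Kupffer identity median of 2.84 is over 5 genes that passed the filter only through Crtc2-/- members, and without the filter it was 0.59 over 12 genes.

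Antigen presentation genes lay close in both genotypes. None of 10 MHC class II genes and none of 13 MHC class I genes with at least 50 CPM was past 2-fold, with median log2 ratios of -0.15 and 0.13. Cd74, the invariant chain, stood at 17987 CPM in Crtc2-/- and 24704 CPM in Crtc2+/+ members, and H2-Ab1 at 6401 CPM in Crtc2-/- and 7527 CPM in Crtc2+/+ members. Of 19 type I interferon response genes, 1 was more than 2-fold lower in Crtc2-/- members, with a median of -0.19. It was Bst2, tetherin, at 345 CPM (324 to 366) in Crtc2-/- and 924 CPM (913 to 935) in Crtc2+/+ members. Isg15 stood at 100.1 CPM in Crtc2-/- and 124.5 CPM in Crtc2+/+ members. In Cxcl9/Cxcl10-high macrophages the median of the same interferon list was -0.99, with Isg15 at 302 CPM in Crtc2-/- and 912 CPM in Crtc2+/+ cells, but whether the gates differ in this was not tested.

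Of 21 listed interferon gamma response genes, 5 reached 50 CPM in a library and 16 did not. Among the 5, 2 were more than 2-fold higher in Crtc2-/- members, beside 3.5% of all tested genes. The median log2 ratio was 0.32 over the 5 and 0.18 over 20 genes without the level filter. Cd274, which encodes PD-L1, a ligand that restrains T cells, stood at 158 CPM (144 to 173) in Crtc2-/- and 40.8 CPM (38.5 to 43.2) in Crtc2+/+ members. It passed 50 CPM only through Crtc2-/- members. Fcgr4, an activating Fc receptor, stood at 762 CPM (732 to 794) in Crtc2-/- and 306 CPM (299.5 to 312) in Crtc2+/+ members, with a UMI in 92.2% of Crtc2-/- and 79.6% of Crtc2+/+ cells. The promoter of Fcgr4 (RefSeq, GRCm38.p6, chr1:171018676-171018975, plus strand) is shown because it is the Fc receptor of higher level whose promoter holds the letters of the interferon-stimulated response element, in capitals, at position -73.
Fcgr4: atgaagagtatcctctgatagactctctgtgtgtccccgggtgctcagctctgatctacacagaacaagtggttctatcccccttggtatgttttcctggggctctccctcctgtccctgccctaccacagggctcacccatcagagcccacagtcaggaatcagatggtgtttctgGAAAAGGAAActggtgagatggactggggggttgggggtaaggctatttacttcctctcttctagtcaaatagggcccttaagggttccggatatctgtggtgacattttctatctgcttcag
Over the complement and Fc receptor list, 3 of 12 genes were more than 2-fold higher in Crtc2-/- members, Cfp, Fcgr4 and Fcrl5, and none was more than 2-fold lower, with a median log2 ratio of 0.15. Fcgr1 was at 221 CPM in Crtc2-/- and 241 CPM in Crtc2+/+ members, and Fcgr3 at 386 CPM in Crtc2-/- and 456 CPM in Crtc2+/+ members.

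The 3 motifs were sought on both strands of the listed promoters of genes past 2-fold. Of these genes, 98 of 132 higher and 87 of 123 lower had a promoter entry, some with several starts. The interferon-stimulated response element was in 14 of 130 promoters (10.8%) of higher genes and 3 of 129 (2.33%) of lower genes, beside 4.10% of promoters of tested genes and 3.44% of all 32851 promoters. Among the higher genes with it were Fcgr4, Mmp13, Ifitm2 and the paired receptors Pilra, Pilrb1 and Pilrb2, and the lower genes with it were Tnfsf13b, Bst2 and Cxcl14. The AP-1 letters, in the loose form with any middle base, were in 7 of 130 promoters (5.38%) of higher genes and 20 of 129 (15.5%) of lower genes, from 17 genes. The shares were 5.41% of promoters of tested genes and 7.81% of all promoters. The CREB site TGACGTCA was in 0 promoters of higher genes and in 1 of 129 of lower genes, that of Hps4, beside 3.11% and 1.79%. Promoters of 1 gene can overlap and neighbouring genes of a family may share sequence, so these promoters are not independent, and a match does not show binding.

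Chemokines and inflammatory genes varied without a common direction. Of 9 other chemokines with at least 50 CPM, 1 was more than 2-fold higher and 3 more than 2-fold lower in Crtc2-/- members. The shares over all tested genes were 3.5% and 3.26%, and the list had a median log2 ratio of -0.36. Ccl5, which draws T cells, stood at 125 CPM (113 to 138) in Crtc2-/- and 447 CPM (439 to 454) in Crtc2+/+ members. Ccl12 was at 27.7 CPM in Crtc2-/- and 69.0 CPM in Crtc2+/+ members, Cxcl14 at 18.3 CPM in Crtc2-/- and 67.9 CPM in Crtc2+/+ members, and Ccl6 at 395 CPM in Crtc2-/- and 179 CPM in Crtc2+/+ members. None of 6 inflammatory cytokines and neutrophil chemokines was past 2-fold, with a median of 0.54. Il1b stood at 482 CPM in Crtc2-/- and 393 CPM in Crtc2+/+ members.

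Genes of immune suppression and uptake were mostly higher where they differed. Of 15 listed suppression genes, 9 reached 50 CPM. Of these, 4 were more than 2-fold higher in Crtc2-/- members, Cd274, Sirpa, Mrc1 and Hmox1, and 1, Havcr2, was more than 2-fold lower. Over all tested genes the shares were 3.5% higher and 3.26% lower. Cd274 was also counted in the interferon gamma list and Mrc1 in the scavenger list. Sirpa, the receptor of the signal CD47, stood at 606 CPM (579 to 634) in Crtc2-/- and 257 CPM (251 to 262) in Crtc2+/+ members. Hmox1, haem oxygenase, stood at 297 CPM (278 to 316) in Crtc2-/- and 87.3 CPM (84.0 to 90.8) in Crtc2+/+ members. Havcr2, which encodes TIM-3, stood at 76.3 CPM (66.9 to 86.6) in Crtc2-/- and 170.4 CPM (166 to 175) in Crtc2+/+ members. Of 10 scavenger and efferocytosis receptors, 3 were more than 2-fold higher and 1, Stab1, more than 2-fold lower. The mannose receptor Mrc1 was at 378 CPM in Crtc2-/- and 156 CPM in Crtc2+/+ members, Lrp1 at 234 CPM in Crtc2-/- and 85.6 CPM in Crtc2+/+ members, and Stab1 at 98.8 CPM in Crtc2-/- and 217 CPM in Crtc2+/+ members. Of 8 genes of iron and haem handling, 2 were more than 2-fold higher, Hmox1 and Slc40a1. Of 20 lysosomal genes and proteases, 1 was more than 2-fold higher, Mmp13, with a list median of 0.01.

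Known targets of CREB and its coactivators showed no common shift. Of 8 that reached 50 CPM, 1 was more than 2-fold higher in Crtc2-/- members, Nr4a1, and 2 more than 2-fold lower, with a median log2 ratio of -0.02. Pde3b, a phosphodiesterase that degrades cAMP, stood at 31.2 CPM (25.3 to 38.1) in Crtc2-/- and 128 CPM (124 to 132) in Crtc2+/+ members. Fosb, an AP-1 subunit that also responds to tissue dissociation, stood at 37.3 CPM in Crtc2-/- and 91.5 CPM in Crtc2+/+ members. None of 9 genes of the CRTC, CREB and SIK families that reached 50 CPM was past 2-fold.

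Marker genes of other cell types were counted in members of both libraries. Whether this RNA came from other cells, and its part in the differences, was not tested. Hepatocyte markers summed to 586 CPM (559 to 613) in Crtc2-/- and 411 CPM (403 to 418) in Crtc2+/+ members, with none of 16 at 0 in either. Only 2 of the 16, Trf and Alb, reached 50 CPM in a library. Trf gave at least 1014 of the 1820 UMIs of this sum in Crtc2-/- members. Endothelial markers summed to 261 CPM (244 to 280) in Crtc2-/- and 125 CPM (121 to 129) in Crtc2+/+ members. Of these 10 markers 2 reached 50 CPM, Pecam1 and Dnase1l3, with at least 356 and 236 of the 812 UMIs in Crtc2-/- members. T cell markers summed to 44.4 CPM (37.3 to 52.5) in Crtc2-/- and 15.5 CPM (14.1 to 17.0) in Crtc2+/+ members. B cell markers summed to 539 CPM (514 to 565) in Crtc2-/- and 293 CPM (287 to 299) in Crtc2+/+ members. Of the 8 listed outside the rule, 3 reached 50 CPM. Bank1 was more than 2-fold higher in Crtc2-/- members and passed 50 CPM only there. Ighm, an immunoglobulin heavy chain, went the other way and was more than 2-fold lower (log2 ratio -1.02). Most of the Crtc2-/- sum came from Bank1, an adaptor protein of B cells, at 355 CPM (334 to 377) in Crtc2-/- and 16.1 CPM (14.7 to 17.6) in Crtc2+/+ members, and it was also at 744 CPM in Crtc2-/- and 398 CPM in Crtc2+/+ cells of the Kupffer gate. Of the 8 B cell markers 1 was at 0 in Crtc2-/- and none in Crtc2+/+ members, and the defining gene Ms4a1 had 1 UMI in Crtc2-/- and 18 UMIs in Crtc2+/+ members. An Igkc UMI was found in 48.1% of Crtc2-/- and 4.81% of Crtc2+/+ members. After thinning the shares were 11.9% of Crtc2-/- and 1.23% of Crtc2+/+ members, below the 18.3% of Crtc2-/- and 4.89% of Crtc2+/+ T cells. T cells were shallower, with medians of 4605.5 UMIs in the Crtc2-/- and 4529 in the Crtc2+/+ library. Thinning can therefore lower free RNA more in members, and the comparison cannot decide whether members were above background.

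The named genes were also summed in each cell. The 12 lowest genes summed to a median of 0 UMIs per 10000 in Crtc2-/- members and 22.3 per 10000 in Crtc2+/+ members, and 58.0% of Crtc2-/- and 1.99% of Crtc2+/+ members had none. The 12 highest summed to a median of 18.3 per 10000 in Crtc2-/- and 0.507 per 10000 in Crtc2+/+ members. The sum of the highest genes exceeded that of the lowest in 278 of 295 Crtc2-/- members, 94.2% (90.9 to 96.6), and in 228 of 3324 Crtc2+/+ members, 6.86% (6.02 to 7.77). The reverse held in 14 Crtc2-/- members, 4.75% (2.62 to 7.83), and in 3062 Crtc2+/+ members, 92.1% (91.1 to 93.0). The genes were chosen on these cells, so the split is a description, in which mixture and cell state cannot be told apart either.

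**Figure D4:**
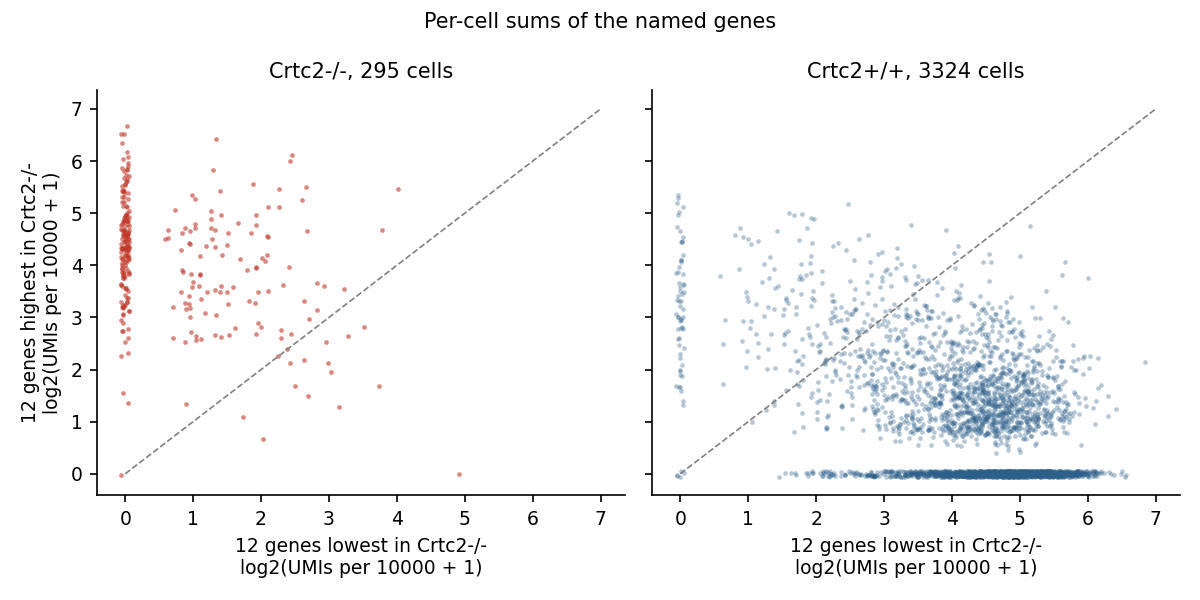
Summed UMIs of the 12 genes lowest (horizontal) and the 12 highest (vertical) in Crtc2-/- against Crtc2+/+ members, as log2 of UMIs per 10000 plus 1, for 295 Crtc2-/- cells (left) and 3324 Crtc2+/+ cells (right), with points spread slightly at random and the line of equal sums dashed. The sum of the highest genes was the larger in 94.2% of Crtc2-/- and 6.86% of Crtc2+/+ cells, and both libraries hold cells on each side of the line.

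As a share of all kept barcodes, cells with the larger sum of the 12 highest genes made up 3.03% (2.69 to 3.40) of the Crtc2-/- and 2.37% (2.08 to 2.70) of the Crtc2+/+ library. Cells with the larger sum of the 12 lowest made up 0.153% (0.0835 to 0.256) of the Crtc2-/- and 31.9% (30.9 to 32.8) of the Crtc2+/+ library. Within the first kind, and leaving the 24 genes aside, 17 of 3690 genes (0.461%) were more than 2-fold higher and 21 (0.569%) more than 2-fold lower in Crtc2-/- cells. Among all members, 120 of 3748 (3.20%) were higher and 111 (2.96%) lower with the same 24 genes left aside, and 16 of the 120 and 12 of the 111 were still past 2-fold within the first kind. The cells were divided by the genes with the most extreme ratios in these same cells. Genes that vary with those 24 come closer by that choice, so the smaller counts describe the division, and mixture was not tested by them. Trem2 was 1 gene that still differed, at 89.5 CPM in Crtc2-/- and 275 CPM in Crtc2+/+ cells of this kind, and Ccl5 another, at 121 CPM in Crtc2-/- and 413 CPM in Crtc2+/+ cells. Slc40a1 stood at 261 CPM in Crtc2-/- and 81.0 CPM in Crtc2+/+ cells. Fabp5 came close, at 226 CPM in Crtc2-/- and 192 CPM in Crtc2+/+ cells of this kind, as did Ms4a7 at 813 CPM in Crtc2-/- and 840.0 CPM in Crtc2+/+ cells.

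Against the Cxcl9/Cxcl10-high macrophages of the same library, members were marked by lower interferon-induced genes in both genotypes. Of 3819 genes in the Crtc2-/- library, 122 (3.19%) were more than 2-fold lower and 21 (0.55%) more than 2-fold higher in members, and of 3675 in the Crtc2+/+ library, 149 (4.05%) were lower and 6 (0.163%) higher. Rsad2, the antiviral protein viperin, stood at 32.5 CPM in members and 325 CPM in Cxcl9/Cxcl10-high cells of the Crtc2-/- library, and at 36.9 CPM in members and 449 CPM in Cxcl9/Cxcl10-high cells of the Crtc2+/+ library. Iigp1, an immunity-related GTPase, was at 23.2 CPM in members and 373 CPM in high cells of the Crtc2-/- library, and at 28.2 CPM in members and 297 CPM in high cells of the Crtc2+/+ library. Ccl12, Serpina3g, Gbp5, Ifi205, Gbp2 and Ifit2 were lower in members of both libraries too. The genes higher in members showed smaller differences. Hpgd, which inactivates prostaglandins, stood at 336 CPM in members and 162 CPM in high cells of the Crtc2-/- library, and at 488 CPM in members and 212 CPM in high cells of the Crtc2+/+ library. Rnf150, Abca9, St8sia4, Pnpla7, Tmem150b, Klhl6 and Specc1 were also higher in members, with log2 ratios between 0.71 and 1.37. The gates were set on 2 interferon-induced genes, so these lists describe the gates.

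The named genotype differences were also present in the Cxcl9/Cxcl10-high cells, of which only 53 came from the Crtc2-/- library. Pmepa1 stood there at 15.5 CPM in Crtc2-/- and 576 CPM in Crtc2+/+ cells, Tnfsf13b at 12.7 CPM in Crtc2-/- and 191 CPM in Crtc2+/+ cells, and Adgre4 at 145 CPM in Crtc2-/- and 9.77 CPM in Crtc2+/+ cells. All 12 lowest genes were past 2-fold lower there and 10 of the 12 highest past 2-fold higher. The other 2 were Cd300e, at 59.3 CPM in Crtc2-/- and 28.7 CPM in Crtc2+/+ cells, and Fcrl5, at 49.4 CPM in Crtc2-/- and 33.9 CPM in Crtc2+/+ cells. Over all genes in the Cxcl9/Cxcl10-high cells, 5.61% were more than 2-fold higher and 4.31% more than 2-fold lower in the Crtc2-/- library.

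**Figure D5:**
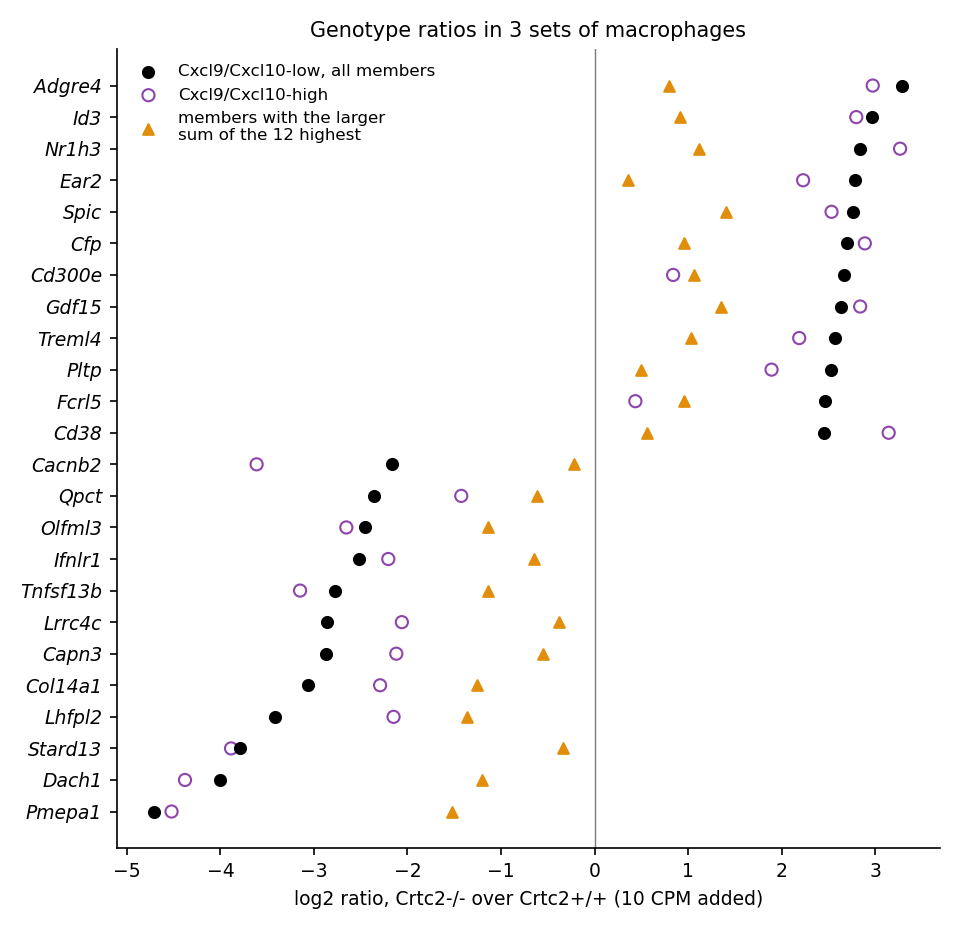
Log2 ratios, Crtc2-/- over Crtc2+/+ with 10 CPM added, of the 24 named genes in all members (black), in Cxcl9/Cxcl10-high macrophages (open purple) and in members whose sum of the 12 highest genes was the larger (orange triangles). Adgre4 stood at 3.29 in all members and 2.97 in Cxcl9/Cxcl10-high cells, and Pmepa1 at -4.71 in all members and -4.52 in Cxcl9/Cxcl10-high cells. The orange triangles lie nearer to 0, in cells divided by these same genes.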

How the data were processed

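The files hold 1 matrix of raw UMI counts (genes by barcodes) for each library, as deposited; per the file headers, Cell Ranger 7.1.0 wrote them. The submitters' processing notes name mm10, Cell Ranger and Seurat. Whether introns were counted, and against which annotation, is not stated in these sources. Of 32285 features, 99.8% matched GENCODE M21 (GRCm38) by identifier, which gave coordinates.

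Kept barcodes had 500 UMIs or more, 250 genes or more and a mitochondrial share of 20% or less. Doublets were not removed, since the rule names no such step. As an alternative, Scrublet (scanpy 1.11.5) called 273 Crtc2-/- and 263 Crtc2+/+ barcodes, of which 2 and 16 were members. Member counts were summed per library and given as CPM with exact 95% Poisson intervals, and shares carry exact Clopper-Pearson intervals. Reads of paralogues and overlapping genes cannot be told apart here.

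Ratios used 10 added CPM and genes with at least 50 CPM in a library. The text names the 12 highest and 12 lowest ratios among 3374 eligible genes: a UMI in at least 5% of members of the higher library and at least 20% of the CPM of any other gated class there, leaving out mitochondrial, ribosomal, haemoglobin, receptor segment, sex-linked, predicted and rule genes. It also names up to 4 genes a list with the largest ratios, the markers, the Crtc2 family, and 8 genes each way against the Cxcl9/Cxcl10-high gate. Other genes, among them Bank1, Tgfb1, Ccr2, Isg15, Fcgr1, Fcgr3 and Gpnmb, were chosen after their values were seen. Members, gene lists and tests were chosen with earlier results of these data known. Mx1 and Mx2 were not analysed here, and values of some listed genes are not reported here.

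Fold calls were checked on counts simulated with known folds and counting error only, which does not cover differences in mixture or library. Python 3.11.15 was used with scipy 1.17.1, numpy 2.4.6, matplotlib 3.10.9 and pandas 2.3.3.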

Additional observations from a re-analysis of the deposited data

How the results depend on the processing

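No paired analysis was possible because each genotype had 1 library. The 24 named genes kept their direction and stayed past 2-fold under 17 alternatives, except Fcrl5, Cd300e and Treml4, which are 0 by construction where cells with them were left out. Genes more than 2-fold higher numbered 218 instead of 132 with genes of at least 20 UMIs over both libraries, and also 218 with no filter, since more genes were tested. The share of members became 2.70% in the Crtc2-/- and 27.1% in the Crtc2+/+ library with no Cxcl9 or Cxcl10 UMI, and 4.84% in the Crtc2-/- and 42.5% in the Crtc2+/+ library within 5000 to 20000 UMIs. It became 1.75% in the Crtc2-/- and 32.3% in the Crtc2+/+ library without UMIs of 7 Kupffer genes, and 0.589% in the Crtc2-/- and 27.2% in the Crtc2+/+ library without UMIs of 5 nonclassical monocyte and Sox5-type genes, both alternatives chosen after seeing the data. With no Clec4f, Vsig4 or Cd5l UMI the Crtc2-/- share was 2.61%, and with up to 10 Cxcl9 and Cxcl10 UMIs the Crtc2+/+ share was 36.4%. In the setting without the 5 genes, which left 54 Crtc2-/- cells, the log2 ratios of Fabp4 and Lpl reversed to -0.97 and -0.42, and the cause was not tested. The median of the Kupffer identity list ranged between 0.59 and 3.63. Some small medians changed sign between alternatives, among them the lipid-associated list, from -0.17 to 0.41, and the scavenger list, from -0.11 to 0.48. With median-ratio size factors the shift of all genes was 0.01 on the log2 scale. Depth limits the Crtc2-/- levels of the lowest genes, several of which rest on fewer than 20 UMIs.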

Other observations

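A Pmepa1 UMI was counted in 25 Crtc2-/- members, a share that after thinning (3.74%) was not above that of Crtc2-/- T cells (6.66%). In the 25 Crtc2-/- members with a Pmepa1 UMI, Olfml3 stood at 119 CPM (81.0 to 169) and Lhfpl2 at 69.2 CPM (41.0 to 109), while in the 270 Crtc2-/- members without it Olfml3 stood at 28.1 CPM (22.3 to 34.97) and Lhfpl2 at 3.16 CPM (1.45 to 6.0). Trem2 was at 262 CPM in the 25 cells. Adgre4 was at 108 CPM (71.6 to 156) in the 25 cells and 331 CPM (310.4 to 353) in the other 270. In the Crtc2+/+ library, 2935 members had a Pmepa1 UMI and 389 had none, and Adgre4 was at 10.9 CPM with and 126 CPM without it. The cells were divided after seeing these values, and no explanation was tested.

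The neutrophil markers summed to 124 CPM (112 to 137) in Crtc2-/- and 123 CPM (119 to 127) in Crtc2+/+ members. Only 1 of the 8, Csf3r, reached 50 CPM in a library, and it gave at least 280 of the 384 UMIs in Crtc2-/- members. Siglech, a receptor of plasmacytoid dendritic cells and microglia, was counted in 0.678% of Crtc2-/- and 11.9% of Crtc2+/+ members, at 0.644 CPM in Crtc2-/- and 23.6 CPM in Crtc2+/+ members. Genes of glycolysis and hypoxia lay close in both genotypes, with none of 9 past 2-fold and a median log2 ratio of 0.25.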
